A study of Mus musculus with 4 samples.

Results

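Adherens junctions were described through 8 genes, the cadherins Cdh1, Cdh2, Cdh3, Cdh6 and Cdh11 and the catenins Ctnna1, Ctnnb1 and Ctnnd1, out of 30406 genes listed at all 4 stages. They were taken by symbol as the cadherins and catenins of interest at the border of the mammary epithelium and its mesenchyme, not by a measured value. Single-cell RNA-seq was made from mammary rudiments of wild-type female C57B6 mice (B6/N in the study's methods), dissected and pooled on embryonic days E13.5 and E14.5, on day E15.5 and on the day of birth (P0), with 1 library for each stage. Cells were sorted on the surface protein EpCAM, epithelial when positive and mesenchymal when negative, after blood and endothelial cells had been gated out. All 4 groups share this genotype and sort, the tissue of several embryos was pooled, and each stage came from its own dissection session. By the study's methods, P0 tissue was digested at other enzyme concentrations than embryonic tissue. Red blood cells were lysed in an added step at P0. These differences cannot be told apart from stage.

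Cadherins are calcium-dependent adhesion proteins that bind cadherins of the same or a similar kind on the next cell. Inside the cell their tails hold beta-catenin (Ctnnb1) and p120-catenin (Ctnnd1), and beta-catenin holds alpha-catenin (Ctnna1), which ties the junction to actin. Beta-catenin is also the nuclear effector of Wnt signals, which are needed for the mammary bud to form. Epithelia classically carry E-cadherin (Cdh1) and often P-cadherin (Cdh3), whereas connective tissue cells carry N-cadherin (Cdh2) or the type II cadherin Cdh11, and a change from the first kind to the second is called cadherin switching.

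Cells with at least 5000 UMIs (unique molecular identifiers, each 1 counted transcript) and at most 6% mitochondrial UMIs were kept. Each was put in the tissue with more UMIs, the epithelium for Epcam, Krt8, Krt18, Krt5 and Krt14 or the mesenchyme for Col1a1, Col1a2 and Col3a1. The E13.5 library gave 98 epithelial and 135 mesenchymal cells, the E14.5 library 45 and 31, the E15.5 library 532 and 283, and the P0 library 230 and 273, and 3 cells had no tissue. The summed depth ran from 838030 UMIs in the E14.5 mesenchyme to 14293755 in the E15.5 epithelium, and the median depth of a cell from 8743 UMIs in the P0 mesenchyme to 26725 in the E14.5 epithelium. A level is the summed UMIs of a gene per 1000000 UMIs of the group (CPM), with an exact 95% Poisson interval, and a ratio has an exact conditional binomial interval. Intervals cover counting error only. With 1 library a stage no test was made, and stage and library cannot be told apart. The E15.5 table has another gene list than the others, and its header names another Cell Ranger version, which the labels do not. A ratio is called higher or lower where its interval excludes 1, and not apart otherwise.

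The labelled tissues were checked with markers that the assignment did not use. A list of 5 further epithelial markers reached 2695 to 5407 CPM in the epithelium and 9.55 to 157 CPM in the mesenchyme. A list of 5 further mesenchymal markers reached 1493 to 14376 CPM in the mesenchyme and 44.8 to 102 CPM in the epithelium. Of the markers of cells that the sort should have removed, immune genes reached at most 2.08 CPM before birth and 37.9 CPM in the P0 mesenchyme, and all 5 were at 0 in the E13.5 and E14.5 epithelium. Markers of endothelium were at 15.0 to 35.5 CPM in the mesenchyme, and 6 cells held nearly all of the 26038 red-cell UMIs of the P0 mesenchyme. Skeletal muscle genes were at 147 CPM in the E13.5 mesenchyme, where 12 of 135 cells had at least 3 such UMIs. The tissue assignment does not separate epidermal from mammary epithelial cells, and the share of epidermal cells was not measured. The study took out contaminating skin cells, which was not done here. It reported fewer mammary epithelial cells at each stage than are labelled epithelial here. In proportion this gap was widest at E13.5, where the study's number was a minor part of the cells labelled epithelial here. Epithelial levels, and their differences between stages, can therefore include skin cells in a share that may differ by stage. Above all, the E13.5 epithelial levels and the ratios to them are not those of mammary epithelium alone.

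The tissues carried different cadherins at every stage, with Cdh1 in the epithelium and Cdh11 in the mesenchyme. Cdh3 was higher in the epithelium in all 4 libraries, Cdh2 was higher in the mesenchyme in the 3 embryonic ones, and Cdh6 was present in both tissues before birth and nearly gone from both at P0. The 3 catenins were found in both tissues and were higher in the epithelium throughout.

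Cdh1 (ENSMUSG00000000303, chr8:106603351-106670246, plus strand, GRCm38) encodes E-cadherin, which seals epithelial cells together. Its level in the epithelium was 147 CPM at E13.5 (131 to 165), 175 CPM at E14.5 (153 to 200), 430 CPM at E15.5 (419 to 440) and 539 CPM at P0 (511 to 568). In the mesenchyme it was 1.66 CPM at E13.5 from 4 UMIs, 1.19 CPM at E14.5 from 1 UMI, 15.8 CPM at E15.5 from 115 UMIs and 14.4 CPM at P0 from 36 UMIs. E-cadherin transcripts were thus 88.8 times as abundant in the epithelium at E13.5 (34.3 to 328), and 147 times at E14.5 (26.1 to 5823), 27.1 times at E15.5 (22.6 to 32.9) and 37.5 times at P0 (27.0 to 53.8). Within the epithelium, E13.5 and E14.5 were not apart (ratio 1.19, 0.995 to 1.42), E15.5 was higher than E14.5 by 2.45 times (2.15 to 2.82), and P0 was higher than E15.5 by 1.25 times (1.18 to 1.33).

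Much of the mesenchymal Cdh1 of the 2 later stages lay in few cells. At E15.5, 6 of the 283 mesenchymal cells were called doublets (droplets with 2 cells) by Scrublet, and they held 90 of the 115 Cdh1 UMIs. Without them the mesenchymal level was 3.55 CPM and the epithelium over mesenchyme ratio was 121 (81.7 to 187). At P0 the 5 called doublets held 14 of the 36 UMIs, and without them the level was 8.97 CPM and the ratio 60.3 (39.7 to 96.6). The higher mesenchymal level of Cdh1 at P0 than at E13.5 (ratio 8.64, 3.098 to 33.4) rests on these small counts. A doublet call does not exclude a single cell with transcripts of both tissues.

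The share of cells with a Cdh1 UMI was also far higher in the epithelium. Of the epithelial cells, 89.8%, 71.1%, 98.3% and 97.4% had one in the order of stage, against 2.96%, 3.23%, 10.2% and 6.59% of the mesenchymal cells. The share depends on depth, and with every cell thinned to 5000 UMIs it was 46.9%, 48.9%, 83.1% and 86.5% in the epithelium and 0.741%, 3.23%, 4.59% and 4.396% in the mesenchyme. At E14.5 the own-depth share was the lowest of the 4 epithelial values although those cells had the highest median depth.

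Cdh3 (ENSMUSG00000061048, chr8:106510891-106557297, plus strand), the gene next to Cdh1 on the same strand, encodes P-cadherin, which is known from the basal layer of epithelia and from embryonic skin buds. Its level in the epithelium was 64.2 CPM at E13.5 (53.6 to 76.1), 69.1 CPM at E14.5 (55.4 to 85.2), 53.0 CPM at E15.5 (49.3 to 56.9) and 21.4 CPM at P0 (16.2 to 27.8). The mesenchymal level was 17.9 CPM at E13.5 from 43 UMIs, 4.77 CPM at E14.5 from 4, 1.65 CPM at E15.5 from 12 and 0.399 CPM at P0 from 1. The E13.5 epithelium had 3.59 times the mesenchymal level (2.53 to 5.20), the E14.5 epithelium 14.48 times (5.46 to 54.3), the E15.5 epithelium 32.0 times (18.2 to 62.3) and the P0 epithelium 53.7 times (9.25 to 2159). P-cadherin was therefore present in the mesenchyme mainly at E13.5, where 20 of 135 cells (14.8%) had a UMI of it and only 4 had one of Cdh1. In the epithelium E13.5 was apart from neither of the other embryonic stages, E15.5 was below E14.5 (0.766, 0.614 to 0.967), and P0 was 0.404 times E15.5 (0.303 to 0.531) and 0.334 times E13.5 (0.240 to 0.460).

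Cdh2 (ENSMUSG00000024304, chr18:16588877-16809246, minus strand) encodes N-cadherin, known from neural, muscle and mesenchymal cells. No UMI of it was found in the epithelium at E13.5 or E14.5, where the exact intervals run up to 1.81 and 2.90 CPM. It was at 2.38 CPM at E15.5 and 2.68 CPM at P0, from 34 and 7 UMIs. The mesenchyme held 72.7 CPM at E13.5 (62.3 to 84.3), 9.55 CPM at E14.5 (4.12 to 18.8), 24.8 CPM at E15.5 (21.3 to 28.7) and 5.98 CPM at P0 (3.35 to 9.87). N-cadherin was thus a mesenchymal transcript in the embryo, and its highest level was at E13.5. At E13.5 and E14.5 the ratio of mesenchyme over epithelium was taken with 3 counts in place of 0. It was 49.4 at E13.5 (interval from 39.8) and 4.05 at E14.5 (from 2.59). The mesenchymal level was 10.4 times the epithelial one at E15.5 (7.19 to 15.52) and not apart at P0 (2.23 times, 0.857 to 6.48). The 12 mesenchymal cells with skeletal muscle markers did not carry the E13.5 value. Without the 14 cells with endothelial, immune, red-cell, melanocyte, glial or skeletal muscle markers the level was 72.2 CPM. Cells with pericyte markers were not left out as such, and 13 of the 135 mesenchymal cells had at least 3 UMIs of these. At P0 the mesenchyme had 0.0823 times the E13.5 level (0.0451 to 0.140). The long noncoding gene Gm15485 overlaps Cdh2 on the opposite strand, and whether counting used the strand is not given in the sources used here.

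Cdh11 (ENSMUSG00000031673, chr8:102632095-102785642, minus strand), also called OB-cadherin, is a type II cadherin known from fibroblasts and bone-forming cells. Its level in the mesenchyme was 294 CPM at E13.5 (273 to 316), 384 CPM at E14.5 (343 to 429), 551 CPM at E15.5 (534 to 568) and 165 CPM at P0 (150 to 182). In the epithelium it was 4.41 CPM at E13.5, 9.42 CPM at E14.5, 10.1 CPM at E15.5 and 1.53 CPM at P0, from 9, 12, 144 and 4 UMIs. Cdh11 was the main cadherin of the mesenchyme in every library, and its level was higher there by 66.7 times at E13.5 (34.9 to 146), 40.8 times at E14.5 (23.0 to 79.7), 54.7 times at E15.5 (46.3 to 65.0) and 108 times at P0 (41.9 to 399). Each of the 3 embryonic mesenchymal levels was apart from the next, and P0 was lower than E15.5, at 0.300 times its level (0.271 to 0.332). A UMI of Cdh11 was found in 94.1%, 96.8%, 99.6% and 64.1% of mesenchymal cells in the order of stage, and after thinning in 71.9%, 80.6%, 83.7% and 43.2%.

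**Figure D1:**
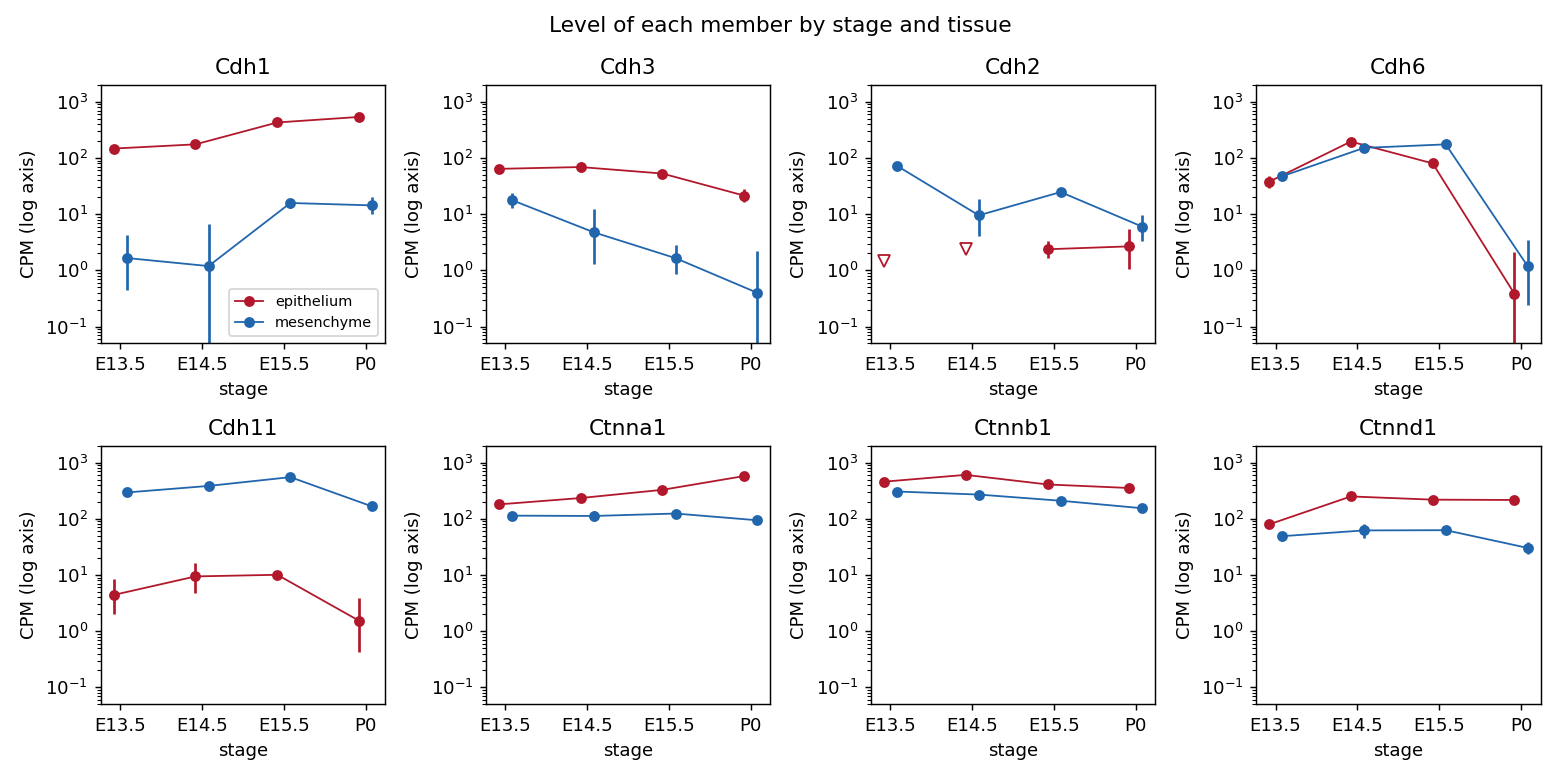
Level of each of the 8 genes in CPM on a log axis (y) by stage (x), in the epithelium (red) and the mesenchyme (blue); points are summed levels of 1 library, bars are exact 95% Poisson intervals cut at the axis, and open triangles mark the 3-count limit where no UMI was found. Cdh1 ran from 147 to 539 CPM in the epithelium and Cdh11 from 165 to 551 CPM in the mesenchyme, whereas both tissues lost nearly all Cdh6 by P0.

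Cdh6 (ENSMUSG00000039385, chr15:13028701-13173675, minus strand), the type II K-cadherin, is known from kidney and from embryonic tissues that form epithelium. Its epithelial level was 37.7 CPM at E13.5 (29.8 to 47.1), 196 CPM at E14.5 (173 to 222), 80.3 CPM at E15.5 (75.7 to 85.1) and 0.382 CPM at P0, from 1 UMI. Its mesenchymal level was 47.3 CPM at E13.5 (39.0 to 56.9), 152 CPM at E14.5 (126 to 180), 175 CPM at E15.5 (166 to 185) and 1.20 CPM at P0, from 3 UMIs. Both tissues thus had more Cdh6 at E14.5 and E15.5 than at E13.5 and nearly none at P0. The tissues were not apart at E13.5 (epithelium over mesenchyme 0.797, 0.589 to 1.07), the epithelium was higher at E14.5 (1.30, 1.04 to 1.62), and the mesenchyme was higher at E15.5 (0.459, 0.423 to 0.497). At P0 the 4 UMIs in 503 cells gave no direction (0.320, 0.00609 to 3.98).

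Between neighbouring stages, epithelial Cdh6 was 5.21 times as high at E14.5 as at E13.5 (4.02 to 6.81) and then 0.409 times at E15.5 (0.356 to 0.471). The mesenchymal level was 3.20 times as high at E14.5 as at E13.5 (2.47 to 4.16), and E15.5 was not apart from E14.5 (1.16, 0.962 to 1.40). From E15.5 to P0 the ratio was 0.00476 in the epithelium (0.000120 to 0.0266) and 0.00683 in the mesenchyme (0.00141 to 0.0200). The P0 cells were shallower, but the thinned share of cells with a Cdh6 UMI gave the same order, with 28.6% of epithelial and 51.9% of mesenchymal cells at E15.5 against 0 of 230 and 3 of 273 at P0. The exact interval of a share of 0 of 230 cells runs up to 1.59%.

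The start region of Cdh6 is shown because this gene had the largest stage difference of the 8, and that of Ctnnb1 because its epithelial level differed least between stages among the members found in all 4 epithelial groups. Both are 300-base windows from RefSeq on GRCm38.p6, from 250 bases before to 50 after an annotated start, written 5′ to 3′ on the gene's strand, and 3 of the 8 members had an entry (Cdh6, Ctnnb1 and Ctnnd1). Capitals mark every match, on either strand, to the GC box GGGCGG, the CCAAT box CCAAT, the TATA box TATAAA and the Snail-type E-box CAGGTG, which is the site studied in cadherin promoters. Overlapping matches are merged.
Cdh6, chr15:13173626-13173925, minus strand: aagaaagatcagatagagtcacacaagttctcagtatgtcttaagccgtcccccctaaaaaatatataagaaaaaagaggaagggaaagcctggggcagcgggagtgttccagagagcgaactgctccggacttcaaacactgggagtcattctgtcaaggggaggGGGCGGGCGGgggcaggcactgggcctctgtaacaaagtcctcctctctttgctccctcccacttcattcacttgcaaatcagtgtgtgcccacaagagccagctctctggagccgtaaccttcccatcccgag
Ctnnb1, chr9:120933150-120933449, plus strand: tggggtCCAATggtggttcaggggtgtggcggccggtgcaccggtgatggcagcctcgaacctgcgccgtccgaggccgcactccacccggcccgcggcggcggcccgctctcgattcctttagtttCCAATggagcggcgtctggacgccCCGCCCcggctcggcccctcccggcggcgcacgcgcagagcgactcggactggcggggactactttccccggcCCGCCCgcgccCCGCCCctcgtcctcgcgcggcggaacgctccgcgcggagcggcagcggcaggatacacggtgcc
The Cdh6 window is 53.0% G and C, held 2 overlapping GC boxes and none of the other 3 motifs, and the Ctnnb1 window shown is 75.3% G and C, with 3 GC boxes and 2 CCAAT boxes. Ctnnb1 has another annotated start, whose overlapping window (chr9:120933328-120933627) held 3 GC boxes, 1 TATA box and no CCAAT box. Among 32851 promoter windows of this length, the GC box was in 35.7%, CCAAT in 37.4%, TATAAA in 13.6% and CAGGTG in 20.2%, and the median G and C content was 52.7%. A match is a description of these letters and not a site in use.

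The UMIs of the 5 cadherins together show how the makeup of each tissue differed with stage. A UMI of a 3′ library is counted once a transcript whatever its length, but transcripts of different genes may be captured with different success. In the epithelium, Cdh1 made up 58.1% of cadherin UMIs at E13.5 and only 38.9% a day later, then 74.7% at E15.5 and 95.4% at P0. The share of Cdh3 was 25.3%, 15.4%, 9.21% and 3.79% in the same order, and that of Cdh6 was 14.9%, 43.6%, 13.96% and 0.0677%. At E14.5 Cdh6 ranked first in the epithelium but was not apart from Cdh1. The epithelial shares combine the bud and Krt15 marker ranges described below, which held 30 and 59 cells at E13.5 and 30 and 13 at E14.5. At E14.5 Cdh6 and Cdh1 were at 296 and 198 CPM in the bud range. In the Krt15 range they were at 28.1 and 136 CPM. How much of the stage difference in makeup came from these proportions was not tested. In the mesenchyme Cdh11 made up 67.8%, 69.7%, 71.7% and 88.3%, Cdh6 10.9%, 27.5%, 22.8% and 0.638%, and Cdh2 16.8%, 1.73%, 3.23% and 3.19%. A single cadherin thus held most of the UMIs in each tissue at every stage, except in the E14.5 epithelium, and its share was highest at P0.

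**Figure D2:**
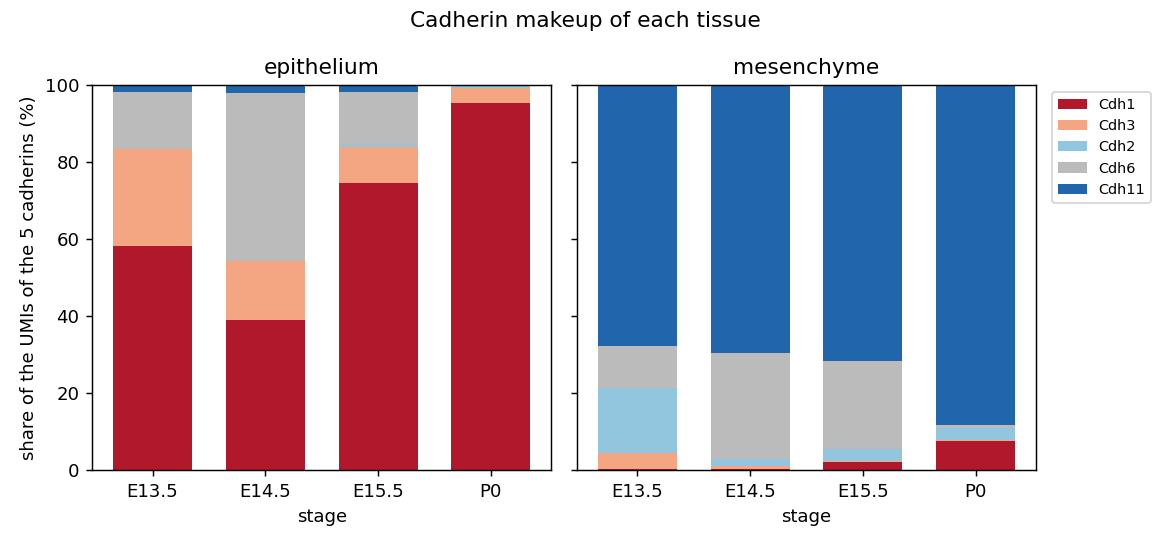
Share of the UMIs of the 5 cadherins (y, %) held by each, by stage (x), in the epithelium (left) and the mesenchyme (right), as stacked bars of 1 library a stage. Cdh1 reached 95.4% of the epithelial and Cdh11 88.3% of the mesenchymal cadherin UMIs at P0, and Cdh6 held 43.6% in the E14.5 epithelium. Epithelial bars combine marker ranges whose proportions differed by stage.

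Ctnnb1 (ENSMUSG00000006932, chr9:120929216-120960507, plus strand) encodes beta-catenin. Its epithelial level was 457 CPM at E13.5 (429 to 488), 605 CPM at E14.5 (563 to 649), 408 CPM at E15.5 (398 to 419) and 353 CPM at P0 (331 to 377). The mesenchymal level was 306 CPM at E13.5 (284 to 328), 270 CPM at E14.5 (236 to 307), 210 CPM at E15.5 (199 to 220) and 154 CPM at P0 (139 to 170). Beta-catenin was the most abundant of the 3 catenins in the embryo by UMIs and was higher in the epithelium, by 1.497 times at E13.5 (1.36 to 1.65), by 2.24 times at E14.5 (1.93 to 2.61), by 1.95 times at E15.5 (1.84 to 2.06) and by 2.29 times at P0 (2.03 to 2.59). It was lower at P0 than at E13.5 in both tissues, at 0.772 times in the epithelium (0.704 to 0.846) and 0.504 times in the mesenchyme (0.444 to 0.570). Ulk4 and 4930593C16Rik overlap it on the opposite strand.

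Ctnnd1 (ENSMUSG00000034101, chr2:84600071-84650765, minus strand) encodes p120-catenin, which keeps cadherins at the cell surface. Its epithelial level was 79.3 CPM at E13.5 (67.6 to 92.6), 250 CPM at E14.5 (223 to 279), 219 CPM at E15.5 (211 to 227) and 216 CPM at P0 (199 to 235). In the mesenchyme it was 49.0 CPM at E13.5, 62.1 CPM at E14.5, 62.7 CPM at E15.5 and 30.3 CPM at P0. Its epithelial difference between E13.5 and E14.5 (ratio 3.15, 2.60 to 3.83) was the second largest of the members after Cdh6, while E15.5 and P0 were not apart (0.987, 0.901 to 1.08). The tissues differed least at E13.5, with 1.62 times as much in the epithelium (1.27 to 2.07), against 4.03 times at E14.5 (2.99 to 5.51), 3.49 times at E15.5 (3.17 to 3.86) and 7.13 times at P0 (5.60 to 9.18).

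Ctnna1 (ENSMUSG00000037815, chr18:35118859-35254779, plus strand) encodes alpha-catenin of epithelia. Its epithelial level was 180 CPM at E13.5 (162 to 200), 234 CPM at E14.5 (208 to 262), 328 CPM at E15.5 (318 to 337) and 576 CPM at P0 (548 to 606), each apart from the stage before. In the mesenchyme it was 114 CPM at E13.5, 112 CPM at E14.5, 124 CPM at E15.5 and 94.1 CPM at P0, and no neighbours in order of level were apart, although P0 was below E15.5 (0.759, 0.655 to 0.877). Alpha-catenin was higher in the epithelium, by 1.58 times at E13.5 (1.35 to 1.86), 2.09 times at E14.5 (1.65 to 2.66), 2.64 times at E15.5 (2.46 to 2.84) and 6.13 times at P0 (5.34 to 7.06). Lrrtm2 lies in the gene on the opposite strand.

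Between E13.5 and P0, Ctnna1 and Ctnnd1 thus differed in direction between the tissues. Ctnnb1 did not, and was lower at P0 in both (0.772 times in the epithelium and 0.504 times in the mesenchyme). In the epithelium Ctnna1 was 3.20 times as high at P0 (2.85 to 3.59) and Ctnnd1 2.72 times (2.28 to 3.26), beside 3.66 times for Cdh1 (3.23 to 4.15). In the mesenchyme Ctnna1 was at 0.827 times the E13.5 level (0.692 to 0.988), Ctnnd1 at 0.619 times (0.457 to 0.832) and Cdh11 at 0.563 times (0.498 to 0.636). The median log2 ratio of all genes with at least 20 UMIs was -0.16 in the epithelium and -0.59 in the mesenchyme, so the mesenchymal ratios of Ctnna1, Ctnnd1 and Cdh11 (log2 -0.27, -0.69 and -0.83) lay on both sides of that median.

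**Figure D3:**
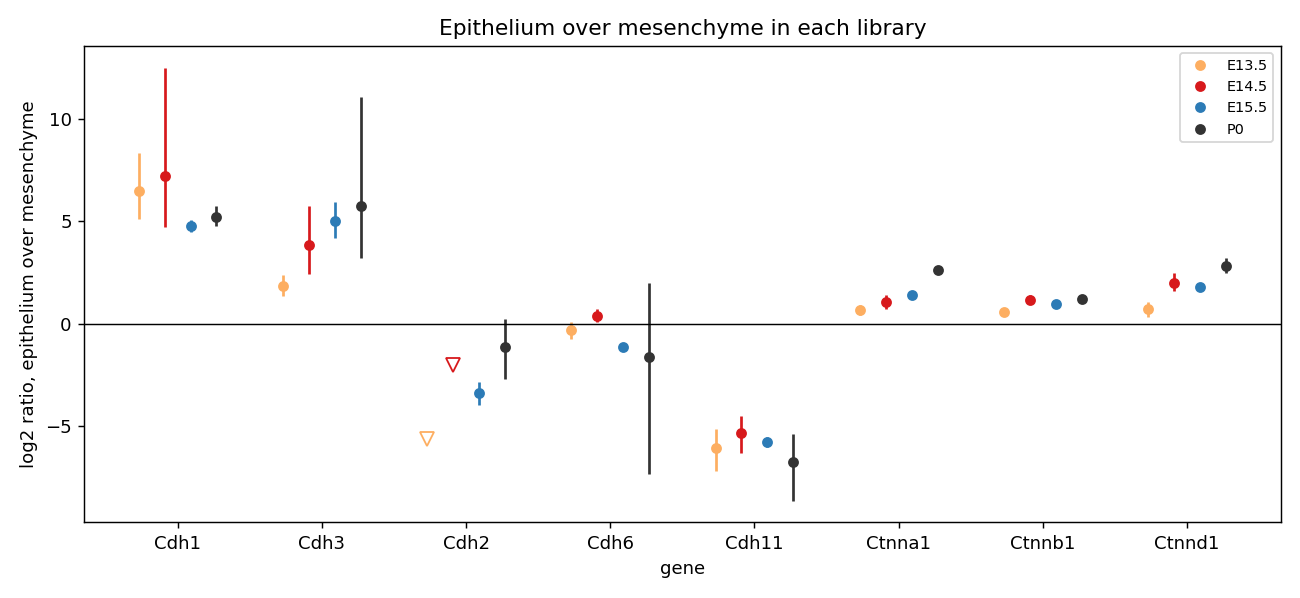
Log2 ratio of the level in the epithelium over that in the mesenchyme (y) for each gene (x) in each library (colours). Bars are exact 95% conditional binomial intervals, and open triangles use 3 counts where the epithelium had no UMI. Cdh1 and Cdh3 lie above 0 and Cdh11 below it in all 4 libraries, Cdh6 lies on both sides, and the 3 catenins lie between 0.58 and 2.83.

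Against all genes with at least 20 UMIs over both tissues, a ratio of at least 2-fold was common. At E13.5, 10.3% of 10630 genes were higher in the epithelium by this measure and 21.9% in the mesenchyme, and of the members Cdh1 and Cdh3 were among the former and Cdh2 and Cdh11 among the latter. At E14.5 the shares were 14.7% and 17.5% of 9067 genes, with Cdh1, Cdh3 and the 3 catenins in the former and Cdh11 in the latter. At E15.5 they were 16.8% and 22.5% of 13149 genes, with Cdh1, Cdh3, Ctnna1 and Ctnnd1 in the former and Cdh2, Cdh6 and Cdh11 in the latter. At P0 they were 24.7% and 18.9% of 10496 genes, with Cdh1, Cdh3 and the 3 catenins in the former and Cdh2 and Cdh11 in the latter. This measure is by size only, and Cdh2 at P0, with 7 epithelial and 15 mesenchymal UMIs, was not apart by its interval. Cdh2 at E14.5 and Cdh6 at P0 had under 20 UMIs. The median log2 ratio of all genes lay between -0.18 and 0.30.

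Between E13.5 and P0 the same measure counted 17.4% of 10105 genes as higher at P0 in the epithelium and 20.2% as higher at E13.5. Cdh1, Ctnna1 and Ctnnd1 were among the former and Cdh3 and Cdh6 among the latter. In the mesenchyme, 14.3% of 10876 genes were higher at P0 and 35.8% at E13.5, with Cdh1 in the former and Cdh2, Cdh3 and Cdh6 in the latter. A gene that passes the limit of 20 UMIs through 1 group only has to differ, so these members support nothing by their count.

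Other genes of the junction were described in the same way from 4 lists. Here too, a gene that passes the limit of 20 UMIs through 1 tissue only has to differ, so the list counts support nothing. The shares of all genes past 2-fold, given above for each stage, stand beside them. Among 19 other catenins and adherens junction genes, 11 of the 18 with at least 20 UMIs were higher in the epithelium at least 2-fold at E13.5, 15 of 17 at E14.5, 13 of 18 at E15.5 and 13 of 17 at P0, with 2, 1, 2 and 1 higher in the mesenchyme. The median log2 ratio of the list was 1.17, 1.53, 1.45 and 2.42. Jup, the plakoglobin that can take the place of beta-catenin, had 252 CPM in the epithelium and 19.1 CPM in the mesenchyme at E13.5, and 332 and 24.3 CPM at P0. Vcl (vinculin), which binds alpha-catenin and actin, had 124 against 77.6 CPM at E13.5 and 299 against 55.8 CPM at P0, and Actn4, an alpha-actinin, had 224 against 134 CPM and 558 against 79.4 CPM. Actn1, another alpha-actinin, had 87.2 against 101 CPM at E13.5 (not apart) and 376 against 29.5 CPM at P0. The genes higher in the mesenchyme were Lima1 and Ctnna2 at E13.5 and E15.5, Lima1 at E14.5 and Nectin3 at P0, named after their values were seen.

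Of 18 other cadherins, 3, 2, 5 and 1 had at least 20 UMIs in the order of stage. Cdh13, a cadherin anchored by lipid without a tail for catenins, had 54.4 CPM in the epithelium and 6.23 CPM in the mesenchyme at E13.5, and 22.3 and 22.7 CPM at E15.5, where the tissues were not apart. Cdh24 had 11.8 and 11.2 CPM at E13.5 and was not apart at any stage. Cdh4 (R-cadherin) had 5.39 and 19.1 CPM at E13.5 and Cdh8 had 2.38 and 4.55 CPM at E15.5. The highest level among the cadherins named here was thus the 54.4 CPM of Cdh13. By count, 1, 1, 0 and 0 of these genes were at least 2-fold higher in the epithelium and 1, 0, 1 and 0 in the mesenchyme, with list medians of 0.07, 1.25, -0.03 and 0.29 on the log2 scale.

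The listed mesenchymal and epithelial factors were split between the tissues, with 1 exception among those with at least 20 UMIs. Of 8 mesenchymal transcription factors, 7 had at least 20 UMIs at each stage, and 6 of these were at least 2-fold higher in the mesenchyme at each. Of all genes with that many UMIs, 21.9%, 17.5%, 22.5% and 18.9% were, in the order of stage. The list medians were -7.52, -7.16, -7.29 and -6.31 on the log2 scale in the same order. Twist1 had 2.94 CPM in the epithelium and 595 CPM in the mesenchyme at E13.5 and 0.765 and 175 CPM at P0, and Zeb2, a repressor of Cdh1, had 0.490 and 89.7 CPM at E13.5 and 1.53 and 177 CPM at P0. Prrx1 and Twist2 had 348 and 298 CPM in the E13.5 mesenchyme, against 1.47 and 0.980 CPM in the epithelium. The exception was Snai2 (Slug), another repressor of Cdh1, with 137 CPM in the epithelium and 72.7 CPM in the mesenchyme at E13.5, 134 and 109 CPM at E14.5, 57.4 and 69.3 CPM at E15.5 and 11.5 and 8.37 CPM at P0. It was singled out after its values were seen.

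Of 10 epithelial transcription and splicing factors, all that had at least 20 UMIs were at least 2-fold higher in the epithelium. These were 10, 8, 10 and 7 genes in the order of stage, beside 10.3%, 14.7%, 16.8% and 24.7% of all genes. Since these factors could pass the limit through the epithelium only, this count was close to fixed. The list medians were 5.84, 5.16, 4.10 and 4.23 on the log2 scale. Klf5 had 598 CPM in the epithelium and 30.7 CPM in the mesenchyme at E13.5, and 902 and 33.9 CPM at P0. Ovol1, a repressor of mesenchymal genes, had 309 and 1.66 CPM at E13.5 and 39.0 and 0.798 CPM at P0, and Grhl3 had 311 and 4.57 CPM at E13.5 and 3 UMIs in all at P0. Esrp1, an epithelial splicing factor, had 184 and 3.74 CPM at E13.5 and 60.1 and 3.19 CPM at P0. The levels of Ovol1, Grhl3 and Esrp1 in the epithelium were lower at P0 than at E13.5, whereas those of Klf5 and Cdh1 were higher. The other genes of the list were not compared between stages here.

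Whether cells lie between the tissues was asked with the epithelial share of each cell's tissue-marker UMIs. Cells with a share of up to 0.1 formed the mesenchymal end, those above 0.9 the epithelial end and the rest the middle. The middle held 12, 1, 12 and 16 cells in the order of stage. At the ends Cdh1 and Cdh11 were almost exclusive by summed UMIs. Cdh6 was not, with 175 CPM at the mesenchymal and 80.9 CPM at the epithelial end of E15.5. At the mesenchymal end Cdh1 made up 0.595%, 0.310%, 0.631% and 4.68% of the UMIs of Cdh1 and Cdh11 in the order of stage, and at the epithelial end 97.1%, 94.9%, 97.9% and 99.8%.

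The middle differed between libraries. At E13.5 it held 1 UMI of Cdh1 and 40 of Cdh11 (2.44% Cdh1, 0.0617 to 12.9), 11 of the 12 cells lay on the mesenchymal side of it, and no cell had both. Those 11 cells had a median of 26 tissue-marker UMIs, against 65.5 at the mesenchymal and 72 at the epithelial end. With as few as 8 such UMIs in a cell, the share is coarse and need not place the cell between the tissues. At E15.5 it held 445 CPM of Cdh1 and 190 CPM of Cdh11 (70.0% Cdh1, 63.9 to 75.7), and 8 of the 12 cells had both. Of those 12 cells 7 were called doublets, 6 of them being all the middle cells on the mesenchymal side. Without called doublets 5 cells were left, with 46 UMIs of Cdh1 and 1 of Cdh11. Their epithelial shares were 0.875 to 0.9, next to the limit of the epithelial end. Scrublet scores a cell by its likeness to simulated sums of 2 cells, so a single cell with transcripts of both tissues can be called too. Leaving called cells out therefore cannot show whether cells lie between the tissues. At P0 the middle held 40 UMIs of Cdh1 and 9 of Cdh11 (81.6% Cdh1, 68.0 to 91.2), 4 of its 16 cells had both, and 6 were called doublets.

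**Figure D4:**
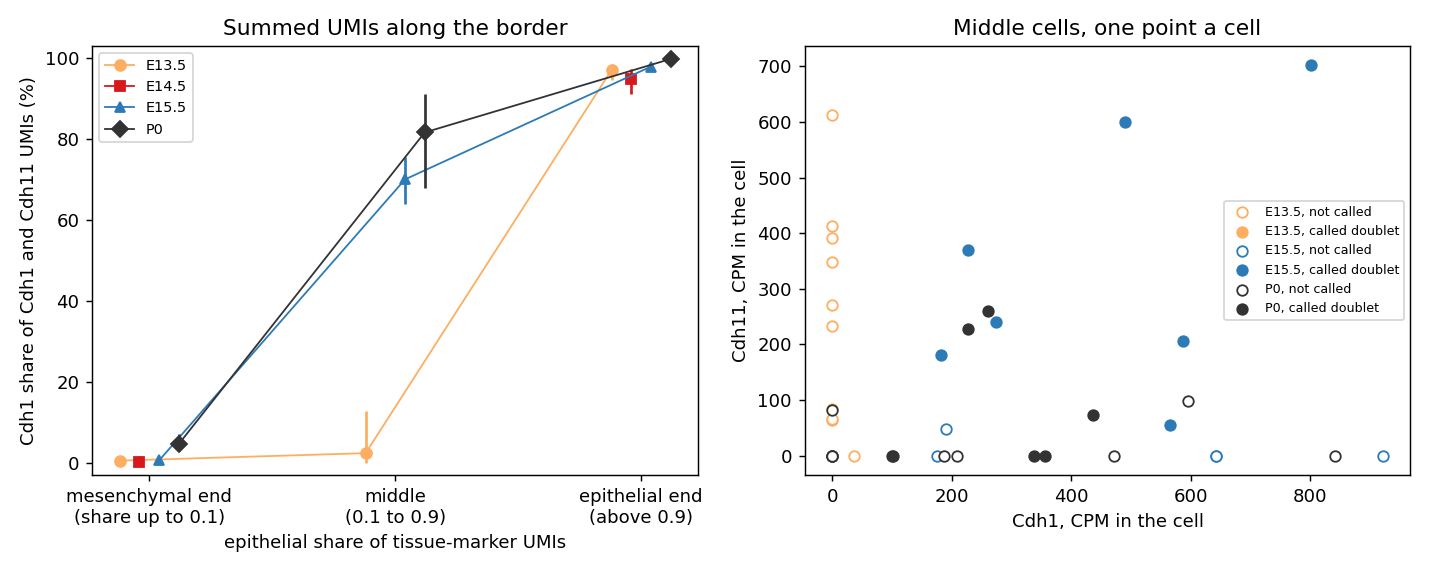
Left, share of Cdh1 in the summed UMIs of Cdh1 and Cdh11 (y, %) at the mesenchymal end, in the middle and at the epithelial end of the epithelial share of marker UMIs (x), by stage, with exact 95% binomial intervals; the 1 middle cell of E14.5 had no UMI of either. Right, CPM of Cdh1 (x) and Cdh11 (y) in each middle cell of E13.5, E15.5 and P0, filled where Scrublet called a doublet. The E15.5 cells with high values of both are filled, and the E13.5 cells lie on the axes.

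A cell with UMIs of both Cdh1 and a mesenchymal cadherin (Cdh2 or Cdh11) was found in both tissues at every stage. In the E13.5 epithelium 6 of 98 cells had both (6.12%, 2.28 to 12.9), in that of E14.5 7 of 45 (15.6%, 6.49 to 29.5), in that of E15.5 108 of 532 (20.3%, 17.0 to 24.0) and in that of P0 9 of 230 (3.91%, 1.80 to 7.30). In the mesenchyme these were 4 of 135 cells (2.96%), 1 of 31 (3.23%), 29 of 283 (10.2%) and 10 of 273 (3.66%) in the order of stage. The epithelial shares were highest at E14.5 and E15.5, where the median depth of a cell was also highest, and at equal depth, thinned to 5000 UMIs a cell, they were 2.04%, 6.67%, 5.45% and 1.74% in the order of stage.

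These shares were mostly of single UMIs. Thinned to 5000 UMIs a cell, the E15.5 share was 5.45% in the epithelium and 3.53% in the mesenchyme, and with at least 2 UMIs of each it was 6.20% and 2.83%. Of the 29 mesenchymal cells with both at E15.5, 6 were called doublets, and of the 108 epithelial cells 1 was. The share of epithelial cells with a Cdh11 UMI, 17.9% at E15.5 at own depth and 3.76% thinned, stands beside 10.2% and 4.59% of mesenchymal cells with a Cdh1 UMI. Free RNA in the droplets was not measured, and its part in these shares was not tested.

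Cadherins of the same tissue were also found in the same cells. Of the E15.5 epithelial cells, 64.1% had UMIs of Cdh1 and Cdh3 and 61.3% of Cdh1 and Cdh6, and Cdh3 was found without Cdh1 in 6 cells and Cdh6 without Cdh1 in 5. Since 98.3% of these epithelial cells had a Cdh1 UMI, both overlaps were nearly fixed by the shares of Cdh3 and Cdh6. Whether these pairs were found together more often than their shares give was not tested. In the E15.5 mesenchyme 82.0% of cells had Cdh6 and Cdh11, and all 107 cells with a UMI of Cdh2 also had one of Cdh11. At E13.5, 63 of 64 mesenchymal cells with a Cdh2 UMI had one of Cdh11. Since nearly all embryonic mesenchymal cells had a Cdh11 UMI, this overlap was nearly fixed by its share. Of the 14 P0 mesenchymal cells with Cdh2, 10 had Cdh11, and of the 38 at E13.5 after thinning 26 had it. At P0 few cells had such pairs, with Cdh2 and Cdh11 in 3.66% of the mesenchyme, Cdh6 and Cdh11 in 1.10%, and Cdh1 and Cdh6 in 0.435% of the epithelium.

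Each tissue was then divided into ranges of marker UMIs, which are not cell types. Embryonic epithelial cells fell in the bud range where the UMIs of Tbx3, Sostdc1, Ndnf, Pthlh, Msx1, Msx2 and Wnt10b were more than those of Krt15, Krt1, Krt10, Krtdap, Sbsn, Dmkn and Lor, with at least 3, and in the Krt15 range where they were fewer. The bud range held 30 of 98 epithelial cells at E13.5, 30 of 45 at E14.5 and 76 of 532 at E15.5, and the Krt15 range 59, 13 and 435. The genes of the second list are known from epidermis, but mammary epithelial cells can express them too, so this is not a share of epidermal cells. Of these cells 15, 3 and 59 had sums within a factor of 1.5, and 9, 2 and 21 cells were in neither range.

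Cdh6 was the cadherin that differed most between these ranges. It had 102.98 CPM in the bud range and 12.4 CPM in the Krt15 range at E13.5 (ratio 8.32, 4.76 to 15.3), 296 and 28.1 CPM at E14.5 (10.5, 6.04 to 20.1) and 161 and 67.4 CPM at E15.5 (2.39, 2.09 to 2.74). Cdh3 was higher in the bud range at E14.5, with 84.5 and 43.2 CPM (1.96, 1.17 to 3.41), and at E15.5, with 76.3 and 49.6 CPM (1.54, 1.27 to 1.85), and not apart at E13.5, with 82.4 and 60.4 CPM. Cdh1 had 154 and 135 CPM at E13.5, 198 and 136 CPM at E14.5 and 322 and 441 CPM at E15.5, so that it was higher in the Krt15 range at E15.5 (0.729, 0.668 to 0.794). Its higher level in the E14.5 bud range (log2 ratio 0.54) was not seen after thinning (-0.037). Ctnnb1 was higher in the bud range at all 3 stages, with 687 and 384 CPM at E13.5, 703 and 462 CPM at E14.5 and 490 and 394 CPM at E15.5. So was Cdh11, at low levels, with 11.2 and 1.46 CPM at E13.5 (7.72, 1.38 to 78.2, from 6 and 2 UMIs). It had 10 UMIs against 0 at E14.5, and 16.0 and 9.46 CPM at E15.5 (1.70, 1.09 to 2.57). Since the 2 ranges made up different shares of each library, the epithelial levels given above combine them in different proportions. Within the bud range Cdh6 was still highest at E14.5, whereas within the Krt15 range it was highest at E15.5.

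**Figure D5:**
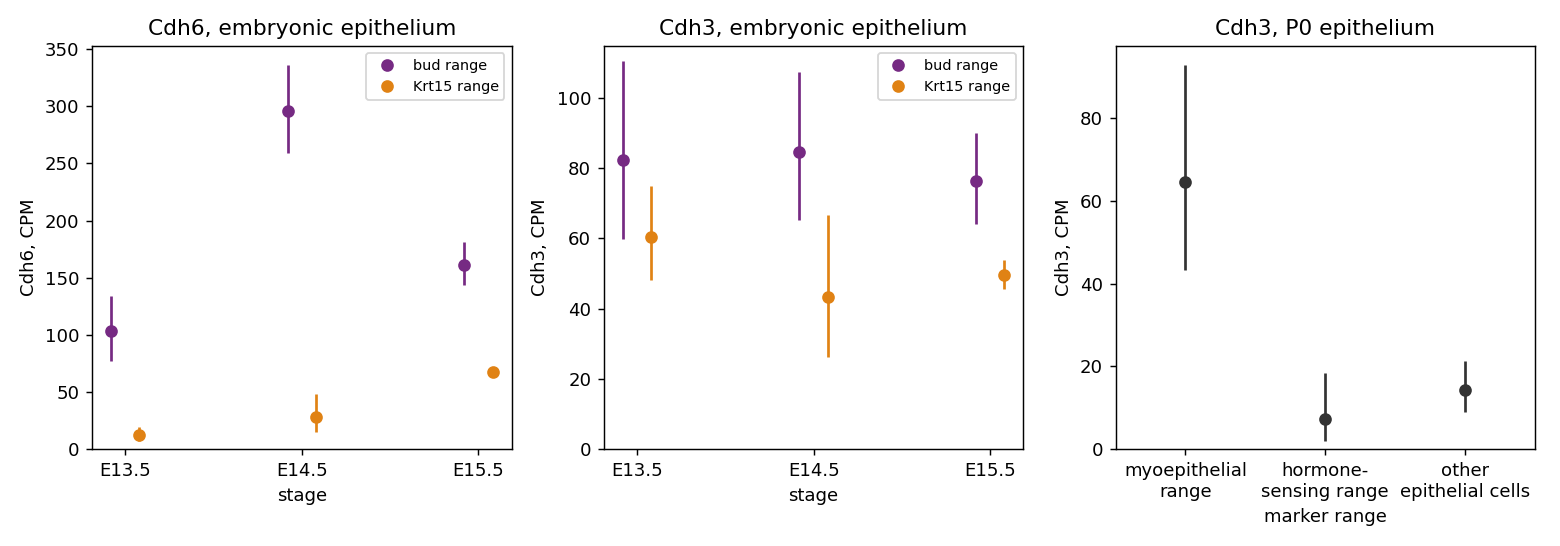
Level in CPM (y) of Cdh6 and Cdh3 in the bud range (purple) and the Krt15 range (orange) of the embryonic epithelium by stage (x), and of Cdh3 in 3 marker ranges of the P0 epithelium, with exact 95% Poisson intervals. Cdh6 was at 296 CPM in the E14.5 bud range against 28.1 CPM in the Krt15 range, and Cdh3 at 64.7 CPM in the P0 myoepithelial range.

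The keratins gave the same picture in part. Between the epithelial cells with the highest and the lowest ratio of Krt5 and Krt14 to Krt8 and Krt18 (the outer tertiles of the cells), Cdh1 was lower at the Krt5 and Krt14 end at every stage, with 93.0 against 198 CPM at E13.5, 104 against 227 CPM at E14.5, 348 against 512 CPM at E15.5 and 477 against 552 CPM at P0. Cdh6 was lower at that end in the embryo, with 3.82 against 82.5 CPM at E13.5, 52.1 against 202 CPM at E14.5 and 59.3 against 76.9 CPM at E15.5. At E14.5 this direction was lost when cells were thinned (log2 ratio -1.95 as given and 0.19 thinned, with 15 cells at each end). Cdh3 was apart only at P0, with 45.0 CPM at the Krt5 and Krt14 end and 13.54 CPM at the other (3.32, 1.74 to 6.69). At E15.5, cells at the end of Anxa1, Ly6d, Plet1 and Lgals3, genes of luminal cells, had 523 CPM of Cdh1 against 330 CPM at the end of Cxcl14, Pthlh, Ndnf and Lmo1. Cdh3 (34.8 against 65.4 CPM) and Cdh6 (42.0 against 112 CPM) differed the other way. Pthlh and Ndnf are in both this list and the bud list. Both ends were taken from all cells labelled epithelial, skin cells included, so they need not be luminal and basal mammary cells. Cdh1 was likewise higher in the E15.5 Krt15 range than in the bud range, with 441 against 322 CPM.

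At P0, 38 epithelial cells with at least 10 UMIs of Acta2, Tagln and Myh11, contractile genes of myoepithelium, formed the myoepithelial range. Another 33 had at least 3 UMIs of Prlr, Cited1 and Esr1, hormone receptors and a marker of hormone-sensing cells, and 159 had neither. Cdh3 was at 64.7 CPM in the first (43.4 to 93.0), 7.18 CPM in the second and 14.3 CPM in the rest, and was 4.53 times as high in the first as in the rest (2.53 to 8.20). These 38 cells held 29 of the 56 Cdh3 UMIs of the P0 epithelium. Cdh1 was lower there, with 388 CPM against 579 CPM in the rest (0.671, 0.567 to 0.789), and so was Ctnnb1, with 268 against 379 CPM. Cdh2 was higher there than in the rest, from 5 and 2 UMIs (8.98, 1.47 to 94.3). In 19 cells the contractile genes had 5 to 20 UMIs, near the limit.

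In the mesenchyme, the outer tertiles of cells by the ratio of Crabp1, Vcan, Esr1 and Lef1 to Cdkn1c and Plagl1 were set against each other. Cdh6 was higher at the Crabp1 and Vcan end, with 102 against 12.2 CPM at E13.5 (8.39, 4.32 to 18.2), 161 against 57.1 CPM at E14.5 (2.82, 1.56 to 5.35) and 193 against 104 CPM at E15.5 (1.85, 1.58 to 2.18). Cdh2 went the other way at E13.5, with 35.9 against 106 CPM (0.338, 0.211 to 0.526), and not at E15.5, with 34.2 against 10.0 CPM (3.41, 2.11 to 5.75). Cdh11 was not apart at E13.5, with 319 against 281 CPM, and was higher at the Crabp1 and Vcan end at E15.5, with 704 against 343 CPM (2.05, 1.88 to 2.24). Cdh3 in the E13.5 mesenchyme was lower at that end, with 6.65 against 29.3 CPM, from 5 and 24 UMIs. At P0 Cdh11 was at 149 CPM in cells led by Pi16 and Dpp4, 217 CPM in those led by Fabp4 and Col15a1 and 145 CPM in those led by Mfap4 and Mgp, the second being apart from both others.

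The genes most like each member were found from the correlation of log2(CPM + 10) over the 8 groups of stage and tissue, among 8693 genes with at least 20 CPM in a group. The points share libraries, and each correlation describes 8 groups. Cdh1 was most like Cldn7 (r = 0.992) and Cldn4 (0.988). Cdh11 was most like Lgals1 (0.995), Ifitm2 (0.993) and Cped1 (0.991), and Cdh2 like Cxcl13 (0.963), Aldh1a2 (0.960) and Zfp334 (0.952). Cdh3 was most like Hacd2 (0.973), Pex7 (0.972) and Ptprf (0.971), and Cdh6 like Ube2m (0.972), Tmem245 (0.971) and Tbx3os1 (0.970). The latter gene had 75.4 CPM in the epithelium and 53.7 CPM in the mesenchyme at E14.5 and 0.765 and 3.59 CPM at P0.

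Among the catenins, Ctnna1 was most like Irgq (r = 0.989), Pard6b (0.988) and Pik3cb (0.984), Ctnnb1 like Nfx1 (0.981), Zfhx2 (0.981) and Agrn (0.978), and Ctnnd1 like Mdn1 (0.995), Pafah1b1 (0.990) and Senp5 (0.989). Between members, r was -0.94 for Cdh1 and Cdh11, 0.92 for Cdh1 and Ctnna1, 0.95 for Cdh3 and Ctnnb1 and 0.28 for Cdh6 and Cdh11. Alpha-catenin thus went with Cdh1 over the 8 groups more closely than beta-catenin did, for which r with Cdh1 was 0.64.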

How the data were processed

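Mammary rudiments of 4 stages were profiled by droplet single-cell RNA-seq (10x), with 1 library a stage. The deposited matrices hold counts of UMIs per gene and cell, made by the authors with Cell Ranger on mm10. The header of the E15.5 table names version 3.1.0 and the others 6.0.0, which the submitters' processing notes give throughout. All 981, 807, 2642 and 1466 deposited barcodes had at least 500 UMIs. Filters, tissues, levels and intervals are given with the results. Sums, ratios and shares were computed with Python 3.11.15, numpy 2.4.6, scipy 1.17.1 and pandas 2.3.3. Doublets were called, not removed, with Scrublet in scanpy 1.11.5 (expected rate 0.06, 15 components). The scripts were tested on simulated data. A ratio against a group without UMIs used 3 counts for that group, and thinning drew 5000 UMIs a cell. Doublet calls at the score limit can vary with numerical rounding.

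The members, gene lists and comparisons were chosen with earlier results of these data known. All 8 members are named, up to 4 genes of each list were named by the largest summed CPM, with others singled out as stated, and the 3 most similar genes by correlation were named for each member, except 1 that is not reported here. Promoter windows came from RefSeq on GRCm38.p6 and gene positions from the annotation of GRCm38. With 1 library a stage no test or replicate error was possible. Barcodes shared between libraries numbered 1 for E13.5 and E15.5 and 1 for E14.5 and E15.5, none among kept cells.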

Additional observations from a re-analysis of the deposited data

Results flagged for a closer look

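Some members moved in opposite directions in the 2 tissues or at 2 stages. With 1 library a stage the difference between such effects was not tested. Ctnna1 had a log2 ratio of P0 over E13.5 of 1.68 in the epithelium and -0.27 in the mesenchyme, and Ctnnd1 had 1.45 and -0.69. The median over all genes with at least 20 UMIs was -0.16 in the epithelium and -0.59 in the mesenchyme. In the mesenchyme Ctnna1 thus lay above the median and Ctnnd1 close to it. For Cdh2 the log2 ratio was 0.87 in the epithelium, from 7 UMIs against 3 counts in place of 0, and -3.60 in the mesenchyme. The interval of the epithelial ratio, not on the log2 scale, ran from 1.13. The log2 ratio of Cdh6 in the epithelium over the mesenchyme was 0.37 at E14.5 and -1.12 at E15.5.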

How the results depend on the processing

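No paired analysis was possible because each stage has 1 library, so no replicate could be left out either. Of 318 alternative values of the 32 tissue ratios, 301 moved by less than the interval and 17 by more. No tissue ratio whose interval excluded 1 changed direction. The Cdh6 ratios at E13.5 and P0, which were not apart, reached 0.047 and 0.22 on the log2 scale (-0.33 and -1.65 as reported). Of 159 alternatives for the 16 ratios of P0 to E13.5, 2 moved. On the log2 scale, the Cdh1 ratio of epithelium over mesenchyme without the cell filter was 4.49 at E13.5 (6.47 as reported), 4.46 at E15.5 (4.76) and 4.21 at P0 (5.23), and that of Cdh11 at P0 was -4.98 (-6.76). At E15.5 the Cdh1 ratio was 6.25 with a 3-times margin between tissues, 5.07 with equal weight of cells and 6.92 without called doublets. Without called doublets it was 5.91 at P0, and the Cdh3 ratio at E15.5 was 5.97 (5.002). Thinned to 5000 UMIs a cell, the Cdh3 ratio was 2.46 at E13.5 (1.85) and the Cdh11 ratio at E15.5 was -6.03 (-5.77). The thinned Cdh3 ratio at E14.5 was 1.46 (3.86), with 3 counts in place of 0 since no mesenchymal UMI was left.

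The share of cells with Cdh1 and a mesenchymal cadherin was 2.04% in the epithelium and 0% in the mesenchyme at E13.5, 5.45% and 3.53% at E15.5, and 1.74% and 1.10% at P0 after thinning. With at least 2 UMIs of each it was 2.04% and 0% in the E13.5 tissues, 0% in the E14.5 mesenchyme, 6.20% and 2.83% in the E15.5 tissues, and 0.435% and 1.10% in those of P0. Of 113 alternatives of the marker ranges, 3 changed the direction of a ratio whose interval excluded 1, all after thinning. Sign changes of ratios that were not apart were not counted. Such changes did occur, as for Cdh1 in the bud against the Krt15 range at E13.5 (0.19, down to -0.13). The 3 counted changes follow. Cdh6 at the Krt5 and Krt14 end against the other end at E14.5 was 0.19 (-1.95), Cdh1 in the bud against the Krt15 range at E14.5 was -0.037 (0.54), and Cdh1 in the Pi16 and Dpp4 against the Mfap4 and Mgp range at P0 was 0.016 (-2.10). The cause of these 3 changes was not tested beyond the smaller counts that thinning leaves. A 4-fold limit in place of 2-fold counted 503, 556, 1085 and 1093 genes as higher in the epithelium in the order of stage and 1124, 724, 1330 and 1147 in the mesenchyme. Between P0 and E13.5 it counted 875 and 713 genes as higher at P0 and at E13.5 in the epithelium and 822 and 1395 in the mesenchyme. Other limits on fold or UMIs moved 13 more of these counts by over 1.5 times. Depth limits Cdh2 in the epithelium, Cdh6 at P0 and Cdh1 in the embryonic mesenchyme, which rest on few UMIs.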
